A study of Homo sapiens with 9 samples.

Results

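The apolipoprotein genes described here were 9 genes whose products are carried on plasma lipoproteins, namely APOA1, APOA2, APOA4, APOA5, APOB, APOC3, APOE, APOH and APOM. They were chosen by name, and the ARID peaks counted for them were those to which the authors gave the gene as nearest. At least 1 such peak was present for 8 of the 9 genes, and these genes took 48 of the 34575 ARID peaks, with 15 in the ARID1A list, 16 in the ARID1B list and 17 in the ARID2 list. APOA4 was assigned none.

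The study mapped subunits of SWI/SNF, a complex that uses ATP to move nucleosomes, by ChIP-seq in HepG2, an established human hepatocellular carcinoma line grown without treatment. The ARID1A, ARID1B and ARID2 subunits are alternative members of the complex, and SNF5 (BAF47, SMARCB1) is a core member. There were 2 replicate libraries for each of the 4 antibodies and 1 input library, and the input was not used here. The deposited peaks had been called on merged replicates, so no value below has a replicate error, the read depth behind each list is unknown, and no test between subunits was possible. Differences between subunits cannot be told apart from differences in antibody or sequencing depth, and a gene without a peak is a gene at which none was called. The ARID lists held 12852 (ARID1A), 8728 (ARID1B) and 12995 (ARID2) peaks, and the SNF5 list held 20718.

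Apolipoproteins coat the lipid particles that carry cholesterol and triglyceride in blood, and the liver makes most of them. Apolipoprotein B forms the backbone of very low density and low density lipoprotein, apolipoproteins A1 and A2 form high density lipoprotein, and the smaller exchangeable members control lipases or bind receptors. In hepatocytes their genes are switched on by liver-enriched factors of the HNF4, forkhead and C/EBP families together with other nuclear receptors. HepG2 is widely used to study their secretion.

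The sequences on which the main peaks lay are given first, from GRCh37 (the same assembly as hg19, which the files use), each 5′ to 3′ on the strand of its gene. Positions are in bp from the start of the Ensembl canonical transcript, with negative values upstream. Capitals mark matches, on either strand, to 5 short patterns searched: CAAAGNNCA (HNF4 type), TGTTTNC (forkhead type), TTGCNNAA (C/EBP type), TGANTCA (AP-1 type) and AGGTCA (the hexamer bound by many nuclear receptors). A match is a string of letters and not a binding site. The first group holds 3 stretches at APOB, shown because they carried peaks of more than 1 ARID: the stretch common to ARID1A, ARID1B and ARID2 far upstream (chr2:21293389-21293642, minus strand, -26697 to -26444), the ARID1B peak at the middle upstream site, which lay inside an ARID2 peak (chr2:21279151-21279275, -12330 to -12206), and the promoter up to the transcript start, shared by all 3 (chr2:21266946-21267201, -256 to -1).
APOB far upstream site: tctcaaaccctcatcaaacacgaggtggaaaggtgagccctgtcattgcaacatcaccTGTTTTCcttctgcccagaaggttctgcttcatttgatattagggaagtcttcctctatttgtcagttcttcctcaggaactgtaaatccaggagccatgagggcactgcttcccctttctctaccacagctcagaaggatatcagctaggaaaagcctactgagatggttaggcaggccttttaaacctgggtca
APOB middle upstream site: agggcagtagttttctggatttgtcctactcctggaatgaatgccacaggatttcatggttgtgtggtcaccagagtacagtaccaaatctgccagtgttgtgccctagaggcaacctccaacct
APOB promoter: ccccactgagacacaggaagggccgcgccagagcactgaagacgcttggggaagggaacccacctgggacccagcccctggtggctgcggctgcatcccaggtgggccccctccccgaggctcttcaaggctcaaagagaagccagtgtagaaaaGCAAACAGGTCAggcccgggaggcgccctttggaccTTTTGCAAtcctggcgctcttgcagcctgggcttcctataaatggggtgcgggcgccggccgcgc
The far upstream stretch held 1 forkhead-type match at -26639. The promoter stretch held a forkhead-type match at -101 and an AGGTCA match at -95, which shared 1 base, and a C/EBP-type match at -65. The middle stretch held none of the 5 patterns.

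The second group shows APOC3 and APOE, where peaks of different ARIDs lay side by side. At APOC3 an ARID1A peak (chr11:116699698-116699825, plus strand) and an ARID2 peak (chr11:116699863-116700030) were separated by 37 bp. At APOE the ARID2 peak of the upstream site (chr19:45407113-45407289, plus strand), which lay wholly within an ARID1A peak, is shown beside the ARID1B peak of the promoter (chr19:45408765-45408990).
APOC3 ARID1A upstream peak: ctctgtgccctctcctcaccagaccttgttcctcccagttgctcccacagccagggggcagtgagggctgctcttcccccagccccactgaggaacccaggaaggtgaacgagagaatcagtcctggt
APOC3 ARID2 upstream peak: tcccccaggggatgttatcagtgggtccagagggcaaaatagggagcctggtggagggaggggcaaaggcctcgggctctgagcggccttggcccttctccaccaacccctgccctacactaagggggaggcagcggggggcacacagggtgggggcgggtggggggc
APOE upstream ARID2 peak: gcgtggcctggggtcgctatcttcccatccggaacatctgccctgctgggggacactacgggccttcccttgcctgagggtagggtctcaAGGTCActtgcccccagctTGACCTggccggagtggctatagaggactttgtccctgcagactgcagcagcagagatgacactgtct
APOE promoter ARID1B peak: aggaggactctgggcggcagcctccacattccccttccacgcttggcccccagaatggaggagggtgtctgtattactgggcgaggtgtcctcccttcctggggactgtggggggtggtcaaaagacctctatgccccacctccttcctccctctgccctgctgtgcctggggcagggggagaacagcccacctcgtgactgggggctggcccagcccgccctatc
The APOE upstream site held 2 copies of AGGTCA in opposite orientation, at -1850 and -1831. None of the 5 patterns occurred in the APOE promoter peak or in either APOC3 peak.

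The third group holds promoter stretches under ARID2 peaks at 2 genes of high density lipoprotein: the 300 bases before the APOA2 start (chr1:161193419-161193718, minus strand) and the upstream bases of the ARID2 peak at the APOM start (chr6:31623585-31623670, plus strand).
APOA2 promoter: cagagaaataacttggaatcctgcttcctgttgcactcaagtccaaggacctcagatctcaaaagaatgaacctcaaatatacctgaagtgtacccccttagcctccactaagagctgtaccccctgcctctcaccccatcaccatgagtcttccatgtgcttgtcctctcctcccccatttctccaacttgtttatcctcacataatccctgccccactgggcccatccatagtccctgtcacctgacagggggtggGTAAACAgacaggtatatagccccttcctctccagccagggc
APOM promoter: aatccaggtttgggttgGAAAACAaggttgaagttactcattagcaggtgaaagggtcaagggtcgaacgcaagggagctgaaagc
Each held 1 forkhead-type match, at -42 in APOA2 and -69 in APOM.

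ARID peaks were unevenly spread over the 9 genes. APOB alone took 22 of the 48 peaks, APOC3 and APOH took 7 each, APOE and APOM 3 each, and APOA1, APOA2 and APOA5 2 each. ARID1A peaks were assigned to 5 of the 9 genes (APOB, APOC3, APOE, APOH and APOM), beside 33.3% of the 20136 protein-coding genes of the annotation. ARID1B peaks were assigned to 6 of 9 (APOA1, APOA5, APOB, APOC3, APOE and APOH), beside 17.1%, and ARID2 peaks to 7 of 9 (all but APOA4 and APOA5), beside 29.7%. Peaks of all 3 ARIDs were assigned to APOB, APOC3, APOE and APOH, which is 4 of 9 beside 10.1%, and any ARID to 8 of 9 beside 43.7%. These genes were chosen with earlier results of these data known, and 9 genes of which 4 stand in a single cluster are few, so the shares are a description. The background held protein-coding genes whether or not HepG2 expresses them. The authors reported little ARID binding at transcripts that were not expressed, and shares among expressed genes were not counted.

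**Figure D1:**
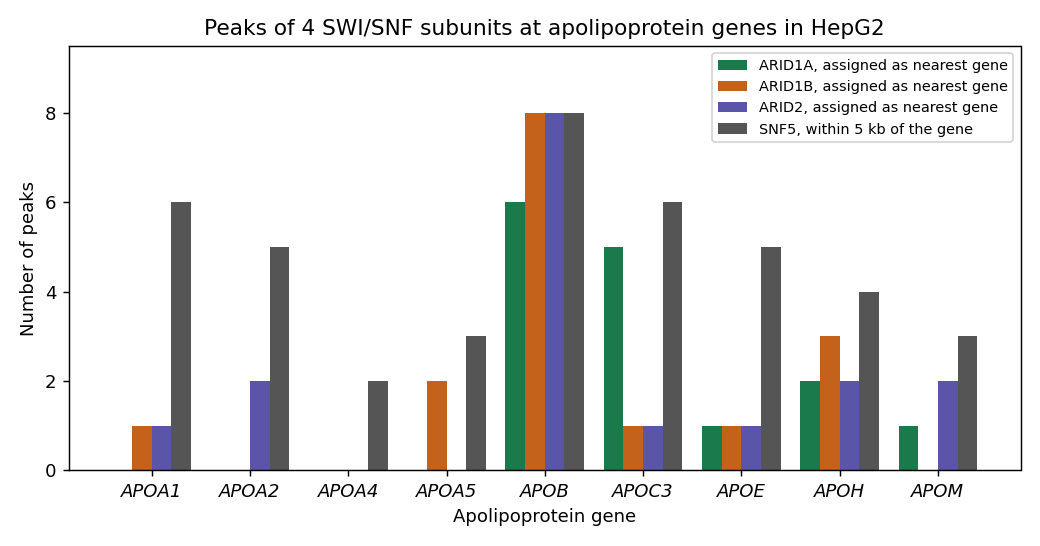
Number of peaks (vertical axis) at each apolipoprotein gene (horizontal axis); green, orange and violet bars count ARID1A, ARID1B and ARID2 peaks assigned to the gene, and grey bars count SNF5 peaks within 5000 bp of it. APOB carried 6, 8 and 8 ARID peaks, APOA4 carried none, and every gene had at least 2 SNF5 peaks. An SNF5 peak near several genes was counted under each of them, as at APOA4, APOC3 and APOA1. There are no error bars because each list was called once on merged replicates.

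SNF5, whose list has no nearest gene, had a peak within 5000 bp of 9 of the 9 genes, beside 52.7% of protein-coding genes. Counted in the same way, without regard to assignment, an ARID peak lay within 5000 bp of 8 of 9, beside 53.5%. SNF5 overlapped 46 of the 48 assigned ARID peaks (95.8%), and 24 of 26 (92.3%) without APOB. By list these were 14 of 15 ARID1A peaks (93.3%), 15 of 16 ARID1B peaks (93.8%) and 17 of 17 ARID2 peaks, whereas SNF5 overlapped 71.3%, 62.9% and 67.2% of the whole lists. Many of the 46 shared a few wide SNF5 peaks, so they are not separate observations. Neither of the other two peaks was far from SNF5. The APOC3 ARID1A peak at 146 to 306 bp lay 66 bp from an SNF5 peak, and the APOA5 ARID1B peak at -4438 to -4267 lay 168 bp from one.

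APOB, which encodes the obligatory structural protein of very low density and low density lipoprotein, lay on the minus strand of chromosome 2 (chr2:21224301-21266945, 42645 bp). Its 22 assigned peaks, summed over the ARID lists, placed it among the 36 of 12428 assigned gene names (0.29%) with at least as many. The median name had 2. The 22 peaks were not separate sites, since 18 overlapped a peak of another ARID. Merged where they touched, they made 10 regions, and names were not ranked by merged regions. In spite of the length of the gene, 14 of the 22 lay between -434 and 4271 bp and the other 8 lay at 2 sites far upstream. An ARID1A peak of 1473 bp covered -321 to 1151. ARID1B had peaks from -434 to 32 and from 291 to 823, and ARID2 had peaks from -256 to 103 and from 512 to 936. All 5 were in the promoter class, and each of the ARID1B and ARID2 peaks overlapped that ARID1A peak.

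Farther into the gene, within its introns, 7 of 9 assigned peaks overlapped a peak of another ARID. ARID1A peaks lay at 1689 to 1790, 2262 to 2353, 3325 to 3391 and 4022 to 4271 bp. ARID1B peaks lay at 1446 to 1681 and 2877 to 2929 bp. ARID2 peaks lay at 1418 to 1715, 2568 to 2896 and 3165 to 3489 bp. Of these 9 intronic peaks, the ARID2 peak at 1418 to 1715 touched both others, although the ARID1A and ARID1B peaks it joined shared no base. The ARID1A peaks at 2262 and 4022 bp touched no other ARID. A single SNF5 peak of 4361 bp with score 33, from -325 to 4035, overlapped all 14 peaks of the gene start and introns. Only 78 of the 20718 SNF5 peaks (0.376%) were at least as wide, and 5.48% scored at least as high.

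At the nearer of the 2 upstream APOB sites an ARID1B peak (-12330 to -12206) lay inside an ARID2 peak (-12338 to -12190) in an SNF5 peak of score 30, with no ARID1A peak. At the farther site ARID1A (-26697 to -26360), ARID1B (-27064 to -26444) and ARID2 (-26720 to -26417) overlapped in an SNF5 peak of score 23. A second ARID2 peak (-27233 to -27048) and 2 ARID1B peaks of 52 bp each (-27439 to -27388 and -26193 to -26142) flanked them. Over the 22 peaks, 18 (81.8%) overlapped another ARID and 22 overlapped SNF5. In the 3′ part of the gene, 2 ARID1A peaks and 1 ARID2 peak lay inside APOB but were assigned to the neighbouring transcript RP11-116D2.1, and so are not among the 22.

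**Figure D2:**
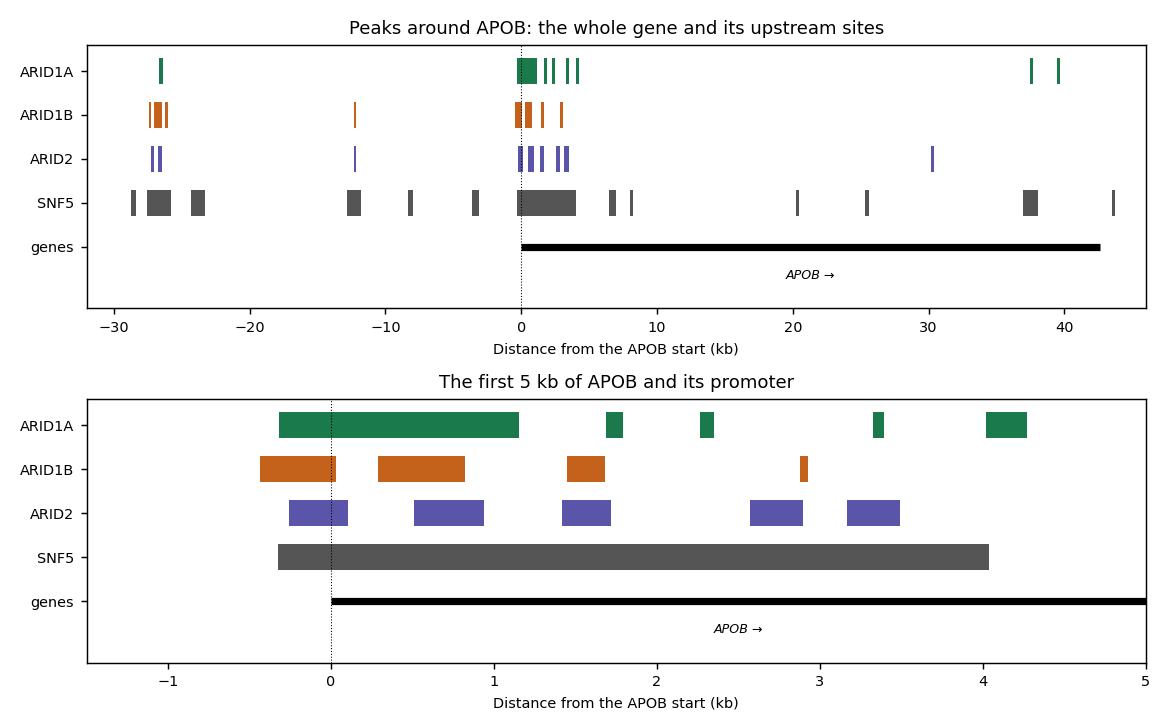
Peaks of ARID1A, ARID1B, ARID2 and SNF5 (rows of coloured blocks) by distance from the APOB start in kb, with the transcript as a black bar read from left to right; the upper panel spans the gene and its upstream sites and the lower panel enlarges the first 5 kb. The ARID peaks assigned to APOB gathered in 1 block under the SNF5 peak of 4361 bp at the start and at the upstream sites around -12268 and -26754 bp. In the introns 7 of the 9 assigned ARID blocks overlapped a block of another ARID. The 2 ARID1A blocks and 1 ARID2 block in the 3′ part of the gene were assigned to RP11-116D2.1.

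APOC3, APOA4, APOA1 and APOA5 form a cluster on chromosome 11. APOC3 encodes an inhibitor of lipoprotein lipase and of remnant uptake, APOA1 the main protein of high density lipoprotein, APOA4 a protein of chylomicrons, and APOA5 a protein that promotes lipolysis by lipoprotein lipase. APOC3 (chr11:116700422-116703788, plus strand) took 5 ARID1A peaks but 1 each of ARID1B and ARID2. The ARID1A peaks lay at -925 to -798, -392 to -167, 146 to 306, 720 to 991 and 2306 to 2529 bp. The first 4 of these, all in the promoter class, overlapped no other ARID. The ARID2 peak (-760 to -593) fell in the gap between the first 2 of them, 37 bp from the nearer. By the authors' distance the ARID1A peak at -392 to -167 lay 76 bp from the nearest start, and it covered the upstream end of the gene span given above. The ARID1B peak, 52 bp wide at 2496 to 2547, overlapped the end of the ARID1A peak in the intron, so that 2 of the 7 peaks touched another ARID. The SNF5 peak over the upstream part was 3389 bp wide with score 20, and 0.936% of SNF5 peaks were at least as wide.

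APOA1 (chr11:116706467-116708338, minus strand) was assigned 1 ARID1B peak of 1078 bp (-1107 to -30) with an ARID2 peak of 246 bp inside it (-361 to -116), and no ARID1A peak. An SNF5 peak of score 20 overlapped both. Peaks of all 3 ARIDs did lie at the other end of the gene: ARID1A from 1608 to 1956 bp, ARID1B from 1579 to 1778 bp and ARID2 from 1236 to 1630 bp, in an SNF5 peak of 1843 bp with score 27. The authors' annotation assigned these to AP006216.12, which in all took 7 peaks within 5000 bp of APOA1 or APOC3, and the later annotation places the antisense transcript APOA1-AS there. Counted within 5000 bp of the gene whatever the assignment, APOA1 had 4 peaks of each ARID. The absence of ARID1A at APOA1 by nearest gene thus rested on which transcript the peak was given to.

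APOA4 (chr11:116691416-116694020, minus strand) had no ARID peak assigned and none within 5000 bp, while SNF5 had a peak of 516 bp with score 18 over its start (-488 to 27). APOA5 (chr11:116660083-116663136, minus strand) was assigned 2 ARID1B peaks and no other ARID. The promoter-class peak was 163 bp wide (-646 to -484) in an SNF5 peak of score 14, a score that 94.8% of SNF5 peaks reached. It covered the upstream end of the gene span given above, and the authors' distance to the nearest start was 21 bp. The distal peak of 172 bp (-4438 to -4267) lay beside an SNF5 peak of score 37, reached by 2.70% of SNF5 peaks and the highest score near any of the 9 genes. The nearest peak of another ARID, an ARID2 peak, was 4395 bp from the first and 8178 bp from the second. It lay within 5000 bp of APOA5 and was assigned to the neighbouring gene ZNF259 (ZPR1). Between APOA5 and APOA4, 2 ARID1A and 2 ARID1B peaks went to the transcript AP006216.5. The 4 genes of the cluster therefore had different ARID assignments: all 3 at APOC3, ARID1B with ARID2 at APOA1, ARID1B at APOA5 and none at APOA4.

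**Figure D3:**
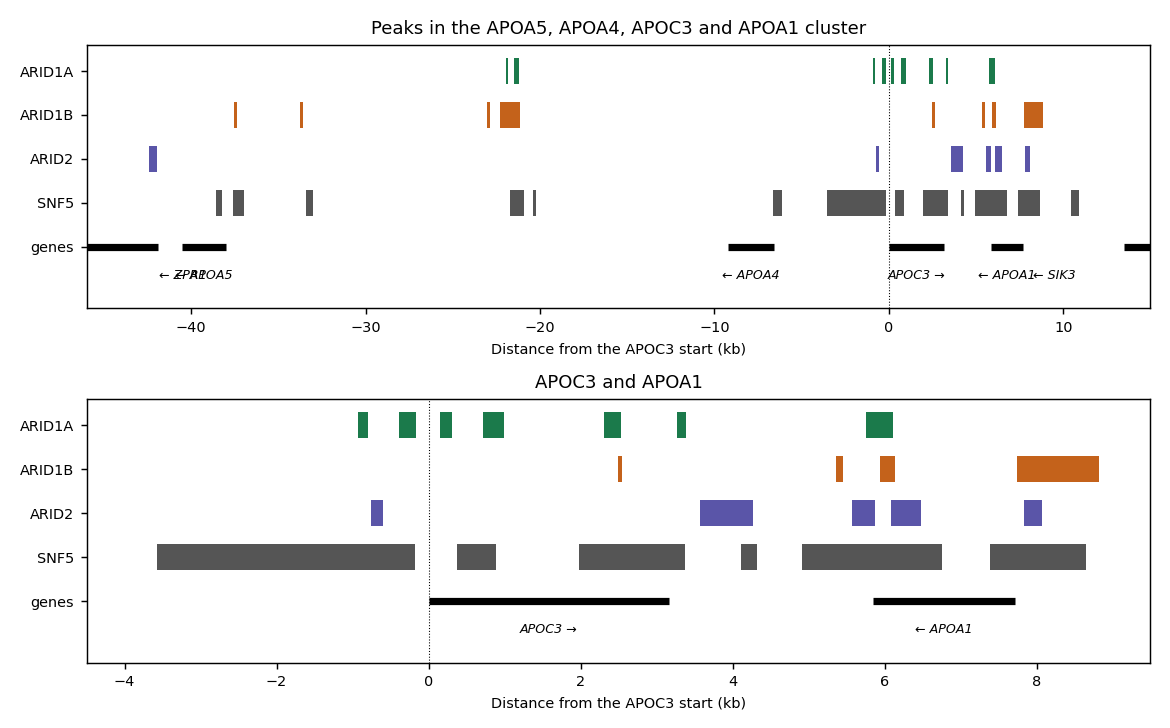
Peaks of the 3 ARIDs and SNF5 (rows) across the APOA5, APOA4, APOC3 and APOA1 cluster by distance from the APOC3 start in kb, with genes as black bars and arrows for their direction; the lower panel enlarges APOC3 and APOA1. ARID1A blocks lay along APOC3, and ARID1B blocks upstream of the canonical APOA5 start. Blocks assigned to AP006216.5 lay between APOA5 and APOA4, and the APOA4 gene carried SNF5 without an ARID block.

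APOA2 encodes the second protein of high density lipoprotein (chr1:161192082-161193421, minus strand). It was assigned 2 ARID2 peaks, of 421 bp (-401 to 19) and 196 bp (-1024 to -829), and no peak of another ARID. Both lay in the same SNF5 peak of 1695 bp, whose score of 29 was reached by 11.0% of SNF5 peaks. The nearest peak of another ARID, an ARID1B peak, was 3791 bp from the first and 4639 bp from the second. It was assigned to AL590714.1, which took 5 ARID peaks within 5000 bp of APOA2. APOA2 was the member with assigned peaks of ARID2 alone.

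APOE (chr19:45409048-45412650, plus strand), whose product is the ligand by which remnant particles bind their receptors on liver cells, had 1 peak of each ARID at 2 places. ARID1A (-2105 to -1657, 449 bp) and ARID2 (-1940 to -1764, 177 bp) overlapped upstream, just past the end of TOMM40. ARID1B (-288 to -63, 226 bp) lay at the promoter, 1368 bp from the nearest ARID1A peak. SNF5 had a separate peak at each place, of 425 and 432 bp, both with score 25. By gene APOE thus counted as shared by all 3 ARIDs, although ARID1B shared no site there with the other two.

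APOH encodes beta-2-glycoprotein I, a plasma protein that binds anionic phospholipid (chr17:64208151-64252643, minus strand, canonical start 64225533). Its 7 peaks divided as 2, 3 and 2 between ARID1A, ARID1B and ARID2. Downstream of the canonical start, ARID1A (304 to 722 bp) overlapped ARID1B (677 to 1049 bp) and ARID2 (414 to 565 bp), which did not overlap each other. The authors' distances to the nearest start were 262, 83 and 286 bp for these 3 peaks in turn. From the start outward, ARID1B (56 to 114 bp), ARID1A (-228 to -6) and ARID2 (-570 to -310) followed with gaps of 61 and 81 bp and no shared base. An SNF5 peak of 1832 bp with score 21 overlapped all 6. The remaining ARID1B peak of 501 bp (-6420 to -5920) had an SNF5 peak of score 27 to itself, and lay in an intron of longer APOH transcripts.

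APOM (chr6:31620193-31625987, plus strand, canonical start 31623671), whose product carries sphingosine-1-phosphate on high density lipoprotein, was assigned 1 ARID1A and 2 ARID2 peaks. The ARID1A peak (-793 to -335) lay inside an ARID2 peak (-1033 to -331). The second ARID2 peak (-86 to 70) lay at the canonical start, 248 bp from ARID1A. The authors' own distances to the nearest start were 139, 257 and 412 bp for these 3 peaks in turn, so by them the ARID1A peak was the closest. An SNF5 peak of 2012 bp with score 22 overlapped all 3. Genes stand close together here. A further 9 ARID peaks within 5000 bp went to BAG6 (6) and C6orf47 (3), which included the 2 ARID1B peaks near APOM. Of those given to BAG6, an ARID1B peak (-3117 to -2680) lay inside the APOM span given above. So did an ARID2 peak (-3270 to -2708) and an ARID1A peak (-2621 to -2504). The absence of ARID1B at APOM by nearest gene thus rested on which gene the peak was given to.

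**Figure D4:**
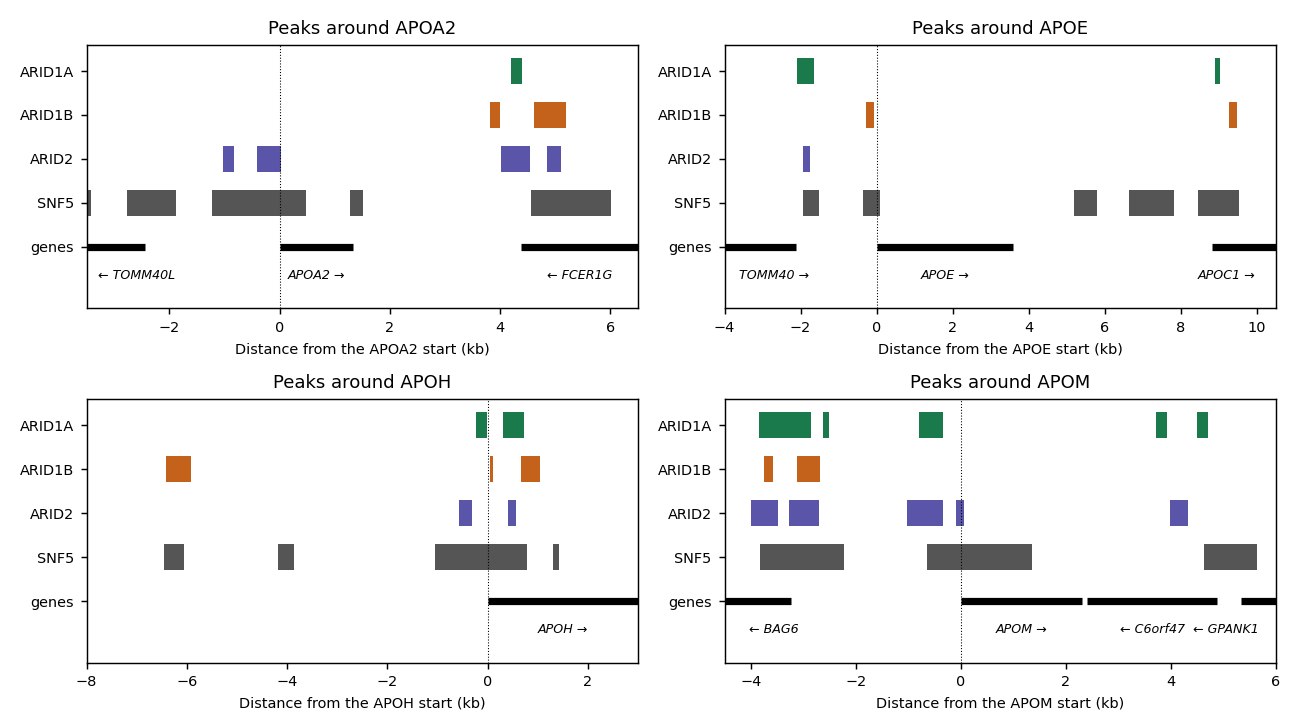
Peaks of the 3 ARIDs and SNF5 (rows) around APOA2, APOE, APOH and APOM, each by distance from its own start in kb and read in its own direction of transcription, with selected neighbouring genes as black bars. APOA2 had ARID2 alone at its start, APOE had ARID1A with ARID2 at one place and ARID1B at another, and at APOH blocks of the 3 ARIDs stood side by side.

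By position, 25 of the 48 peaks were in the authors' promoter class, which held distances of up to 998 bp, 12 were intronic, 11 distal and none exonic. The promoter class held 8 of 15 ARID1A peaks (53.3%), 7 of 16 ARID1B peaks (43.8%) and 10 of 17 ARID2 peaks (58.8%), against 72.6%, 37.9% and 67.0% of the whole lists. These shares rested on APOB, and without it the promoter class held 7 of 9 (77.8%), 5 of 8 (62.5%) and 8 of 9 (88.9%). The median widths were 226, 199 and 261 bp for ARID1A, ARID1B and ARID2 at these genes and 218, 164 and 189 bp in the whole lists. Without APOB they were 226, 199 and 196 bp at these genes.

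Another ARID overlapped 29 of the 48 peaks (60.4%), but 11 of 26 (42.3%) without APOB, where the whole lists had 47.6% (ARID1A), 40.1% (ARID1B) and 46.9% (ARID2). Merged where they touched, the 48 peaks made 30 regions, of which 19 held 1 ARID (63.3%), 7 held 2 (23.3%) and 4 held all 3 (13.3%). Of the 25247 regions of the whole lists 74.7% held 1 ARID, 17.8% held 2 and 7.55% held all 3. Without APOB there were 20 regions, of which 15 held 1 ARID (75%), 4 held 2 (20%) and 1 held all 3 (5%). The 4 regions with all 3 were the APOB start, its first intronic site, its far upstream site and the APOH site downstream of the start. APOC3 and APOE, which also had peaks of all 3 ARIDs, had no region with all 3.

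The 19 single peaks lay a median of 248 bp (37 to 8178 bp) from the nearest peak of another ARID, and 12 of the 19 lay within 1000 bp. Without APOB the median was 738 bp, and 8 of 15 lay within 1000 bp. Of the 18858 single peaks in the whole lists 44.5% did so. By list, with APOB included, the counts were 6 of 7 for ARID1A (47.9% in the whole list), 3 of 7 for ARID1B (29.8%) and 3 of 5 for ARID2 (52.3%). The exceptions were both peaks of APOA2, both of APOA5, the ARID1A peak of APOC3 at 720 bp, the ARID1B peak of the APOE promoter and the far ARID1B peak of APOH.

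The SNF5 peaks near the 9 genes resembled the whole SNF5 list in score and width. There were 36, with a median score of 20.5 (11 to 37) and a median width of 533 bp, against 19.0 and 535 bp for all 20718. No ARID peak overlapped 17 of the 36 (47.2%), as for 49.1% of the whole list. The median score was 16 for these 17, 21.5 for the 8 overlapped by 1 ARID, 22 for the 7 overlapped by 2 and 28 for the 4 overlapped by all 3. In the whole list the corresponding medians were 17, 20, 22 and 26. Wider SNF5 peaks have more room for an overlap, and the median width near the genes was 350 bp with no ARID and 1837.5 bp with all 3. The peak of score 37 upstream of APOA5 had no ARID overlap, and the other 16 of that kind scored at most 26.

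**Figure D5:**
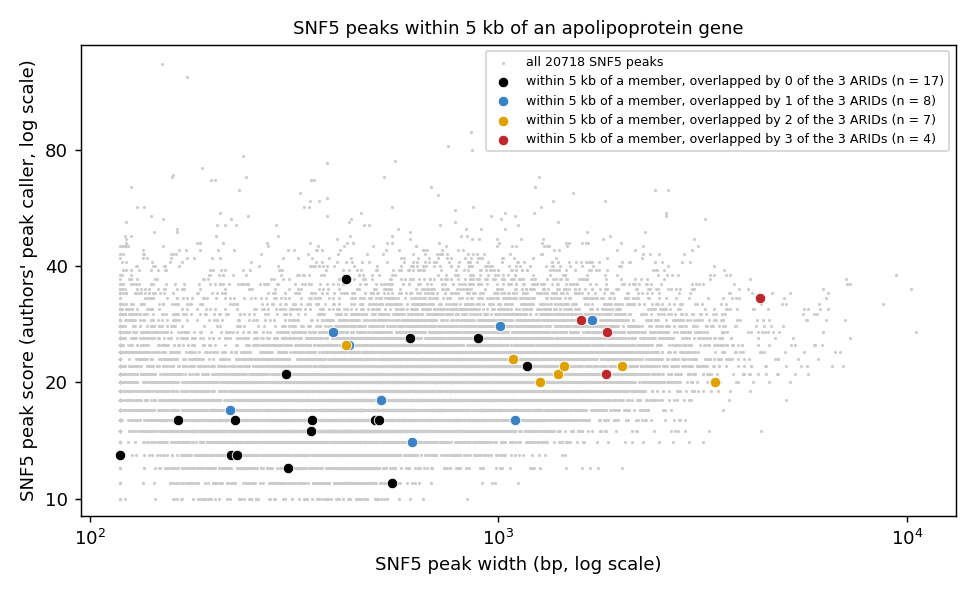
Score given by the authors' peak caller (vertical, log scale) against width in bp (horizontal, log scale) for all 20718 SNF5 peaks (grey points) and for the 36 within 5000 bp of an apolipoprotein gene, coloured by how many of the 3 ARIDs overlapped them. The 4 peaks with all 3 ARIDs were between 1592 and 4361 bp wide with scores of 21 to 33, and the black point at score 37 is the peak upstream of APOA5.

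In base composition, the median GC content of 300 bp windows at these genes was 49.7% on ARID1A peaks, 50% on ARID1B peaks and 48.7% on ARID2 peaks, against 63.7%, 51.0% and 56.7% in the whole lists. For ARID1A this followed from APOB, since the median was 61.0% without it, while for ARID2 it stayed at 50.3%. Among promoter-class peaks the medians were 61.8%, 59.3% and 50.8%, against 66.7%, 62.3% and 61.3%. Over its own 223 bp, not a 300 bp window, the ARID1A peak at the APOH start held 32.7% GC. The lowest value of an ARID1A window at these genes was 36.3%.

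The 5 patterns were counted in the same windows, of which those on overlapping peaks share sequence. The HNF4-type pattern was present in 6 of 48 (12.5%), all at APOB, and in 8.23% of the 34575 windows of the whole lists. The forkhead-type pattern was present in 13 (27.1%) at APOA1, APOA5, APOB, APOC3, APOH and APOM, against 19.4%. The forkhead-type match marked in the APOA2 promoter stretch was not counted, since the edge of the window on that peak cut through it. The C/EBP-type pattern was present in 8 (16.7%), against 11.2%, the AP-1-type pattern in 7 (14.6%), against 7.44%, and AGGTCA in 12 (25%), against 17.2%. Without APOB, 26 windows remained, and the counts were 0 (HNF4 type), 6 (forkhead type), 4 (C/EBP type), 3 (AP-1 type) and 7 (AGGTCA). With 48 partly overlapping windows these shares are counts of letters and no difference was tested. Nor were they adjusted for GC content, whose medians were lower at these genes than in the whole lists.

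Other genes were counted beside them, from lists drawn up by function, except that the list of other apolipoprotein genes mainly followed the APO names. Whether each gene of that list encodes a lipoprotein component was not checked. Of all protein-coding genes, 33.3% had an assigned ARID1A peak, 17.1% an ARID1B and 29.7% an ARID2 peak, and 10.1% had all 3. These shares stand beside the counts of each list below. Among 15 other apolipoprotein genes, 3 had an ARID1A, 4 an ARID1B and 4 an ARID2 peak. CLU, which encodes clusterin, alone had all 3, and APOC4, APOD, APOF, APOL2, APOL5 and APOO were among the 7 with none. The median was 1.0 peaks per gene, against 3.0 for the 9 members. Among 8 genes of lipoprotein assembly the counts were 3, 4 and 4. CIDEB, a lipid droplet protein, and SAR1B, a GTPase of vesicle budding, had all 3, while SURF4 and TM6SF2 had none. MTTP, which loads lipid onto apolipoprotein B, had 1 ARID2 peak.

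Among 11 genes that remodel lipoproteins in plasma, 2 had an ARID1A, 3 an ARID1B and 3 an ARID2 peak. LCAT, which esterifies cholesterol on high density lipoprotein, was the gene with all 3, and ANGPTL8, CETP, GPIHBP1, LPL and PON1 were among those with none. Among 10 genes of uptake and efflux the counts were 5, 3 and 4. The receptor SCARB1, with 7 peaks, was among those with all 3 ARIDs, and ABCA1, ABCG1, LRP8 and VLDLR had none. Among 12 regulators of these genes the counts were 8, 5 and 9, with a median of 3.0 peaks. FOXA2, NR0B2 and RXRA had all 3 ARIDs, NR2F2 was among those with none, and HNF4A had 3 ARID1A and 4 ARID2 peaks without ARID1B.

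The last list held other plasma proteins made by the liver. Of 20 such genes, 9 had an ARID1A, 13 an ARID1B and 9 an ARID2 peak, 7 had all 3 and 6 had none, with a median of 2.5 peaks per gene. The first 6 with all 3 in alphabetical order were AFP, AHSG, AMBP, F2, ORM1 and RBP4, and those with none were HPX, ITIH1, PLG, SERPINC1, TTR and VTN. AFP, the fetal counterpart of albumin, had 10 peaks, the highest number in that list and fewer than APOB. An SNF5 peak lay within 5000 bp of 16 of these 20 genes and of 12 of the 12 regulators. The counts were 7 of 8 for assembly, 7 of 10 for uptake and efflux, 6 of 11 for remodelling and 8 of 15 for other apolipoproteins.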

How the data were processed

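ChIP-seq libraries of HepG2 were grouped by the antibody in their titles. The authors aligned reads to hg19 with Bowtie2, filtered duplicates, merged the 2 replicates of each antibody, called broad peaks with MACS2, merged adjacent peaks and dropped those in blacklisted regions. The use of the input as control was not given in the sources used here. For the ARID lists the deposited columns used were peak boundaries, class, nearest gene (Gencode), distance in bp and a single or multiple label. The deposited SNF5 score, a whole number from the authors' peak caller, ranked peaks within the SNF5 list only, since the ARID lists have none. The deposited chromatin state was not used.

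The files count starts from 0, and coordinates here are 1-based. Overlap meant at least 1 bp shared with a peak of another list. Gencode v44 lifted to GRCh37 gave gene spans, canonical starts and the 20136 background genes, and 10026 of the 12428 names in the lists matched it. SNF5 and neighbouring peaks were counted within 5000 bp of a gene. Pattern and GC windows were 300 bp around peak midpoints. Depth is unknown and intervals could not be given. No test was made, and counts stand beside those of the whole lists. Overlap counting was tested on simulated data (Python 3.11.15, pandas 2.3.3, pysam 0.24.0).

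All 9 members were named with every assigned peak. In the lists beside them, genes with all 3 ARIDs and genes with none were named, at most 6 of each in alphabetical order, and neighbours that took a peak within 5000 bp of a member were named. MTTP, HNF4A and AFP were named outside that rule after their values were seen. Members and lists were chosen with earlier results of these data known, and AGGTCA was added to the patterns after sequences had been seen. Alternatives were another annotation, other windows, overlaps and gaps, joined peaks, every biotype as background and, chosen after seeing the data, leaving out APOB. A few of the listed items are not reported here.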

Additional observations from a re-analysis of the deposited data

How the results depend on the processing

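Of 58 alternatives to 20 counts and medians, 35 stayed within 1.5 times the value in the text and 23 did not. Values are given for ARID1A, ARID1B and ARID2 in that order. Joining peaks of a list that lay at most 1000 bp apart left 7 ARID1A and 9 ARID2 peaks. With a distance of at most 5000 bp in place of the promoter class, 14 ARID1A and 11 ARID1B peaks were counted. A reciprocal overlap of at least 50% left 2, 4 and 6 peaks with another ARID and 1, 3 and 0 with SNF5, whose peaks are wider than those of the ARIDs. A gap of at most 1000 bp gave 14 ARID1A peaks with another ARID. Leaving out APOB, which was chosen after seeing the data, left 9, 8 and 9 assigned peaks, 4, 3 and 4 with another ARID and 8, 7 and 9 with SNF5. Genes of every biotype as background gave shares of 11.7%, 6.68% and 10.6%. The members with an assigned peak of each ARID, the members near SNF5 and the median SNF5 score stayed within that range under each alternative tried.

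Replicates were not left out, since each list was called on merged replicates. No paired analysis was possible because the result comes from no test. Depth, which the lists do not carry, limits any statement on genes without a peak.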

Other observations

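The deposited chromatin state was left out because peaks of 2 lists that overlap each other often carried different states. The same state stood on 42.9% of 2880 overlapping pairs of ARID1A and ARID1B peaks, 51.4% of 5618 pairs of ARID1A and ARID2 peaks and 38.3% of 2458 pairs of ARID1B and ARID2 peaks. The cause was not tested.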
